A study of Mus musculus with 20 samples.

Results

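The mitotic spindle and checkpoint genes described here are 45 genes taken by name, 45 of the 14793 genes for which expression in mouse knee joints was measured. They were grouped by textbook role into 6 genes of the spindle assembly checkpoint, 9 of the anaphase-promoting complex and its activators, 5 mitotic kinases and cyclins, 4 of the chromosomal passenger complex, 9 of the centromere and kinetochore, 9 spindle motors, microtubule factors and cytokinesis genes, and 3 chromosome factors and proliferation markers. Bulk RNA sequencing was performed on the operated knee of 20 male C57BL/6Nci mice, 12 weeks old at the start, all with destabilization of the medial meniscus (DMM), a surgery that leads to osteoarthritis. Control joints (n = 5) received a needle without cells. MSC joints (n = 5) received 250000 non-activated mesenchymal stromal cells per injection in weeks 3 and 5 after surgery. TLR-MSC joints (n = 5) received the same cells activated for 2 h with polyinosinic-polycytidylic acid (10 µg/mL), which stimulates Toll-like receptor 3. STING-MSC joints (n = 5) received cells activated for the same time with cGAMP (10 µg/mL), which stimulates the Stimulator of Interferon Genes pathway. The injected cells came from pooled adipose tissue of male mice and a single donor pool, and control joints received neither cells nor the fluid that carried them. Cartilage, synovium, capsule and the adjacent bone were extracted together, in week 8 after surgery by the study's methods, although its results place extraction a day after injection.

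Cells divide by attaching each pair of sister chromosomes to the spindle through kinetochores, protein assemblies built on the centromere. Until all are attached, the spindle assembly checkpoint holds back the anaphase-promoting complex, a ubiquitin ligase, which then with its activator Cdc20 marks cyclin B and securin for destruction so that the chromosomes separate. Most of these genes are transcribed late in the cell cycle and are low in resting cells. In an adult joint, cartilage cells and osteocytes rarely divide, whereas the marrow of the adjacent bone holds many dividing blood cell precursors.

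Expression of most of these genes is known to depend on promoter elements called the cell cycle genes homology region (CHR) and the CCAAT box. RefSeq promoter sequences (build GRCm38.p6, 250 bases before to 50 after the annotated start) were available for 40 of the 45 genes, and those of Aurkb, Incenp, Spc24, Kif20a and Tpx2 were not analysed here. The 250 bases before the start are shown for Mki67, Plk1 and Cdc20, whose windows hold a CHR match, and for Ccnb1, whose window holds none. The motifs can thus be seen beside the expression values that follow. Capitals mark the CHR (TTTGAA or TTCGAA) and the CCAAT box (CCAAT), each on either strand, so that ATTGG is a CCAAT box on the opposite strand. The sequences run 5′ to 3′ on the strand of the gene, and the coordinates are those of GRCm38.p6, not of GRCm39, the build of the expression table.
Mki67, chr7:135716380-135716629, minus strand: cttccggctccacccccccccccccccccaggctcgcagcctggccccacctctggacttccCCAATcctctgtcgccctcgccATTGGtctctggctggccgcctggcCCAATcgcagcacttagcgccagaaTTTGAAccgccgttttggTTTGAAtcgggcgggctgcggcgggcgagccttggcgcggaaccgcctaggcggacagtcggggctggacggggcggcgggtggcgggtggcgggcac
Plk1, chr7:122159185-122159434, plus strand: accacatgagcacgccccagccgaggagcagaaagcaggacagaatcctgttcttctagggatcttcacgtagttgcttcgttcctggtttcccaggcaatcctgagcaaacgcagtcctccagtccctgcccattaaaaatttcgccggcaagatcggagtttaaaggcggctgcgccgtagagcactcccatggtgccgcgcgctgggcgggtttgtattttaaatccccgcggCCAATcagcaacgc
Cdc20, chr4:118437344-118437593, minus strand: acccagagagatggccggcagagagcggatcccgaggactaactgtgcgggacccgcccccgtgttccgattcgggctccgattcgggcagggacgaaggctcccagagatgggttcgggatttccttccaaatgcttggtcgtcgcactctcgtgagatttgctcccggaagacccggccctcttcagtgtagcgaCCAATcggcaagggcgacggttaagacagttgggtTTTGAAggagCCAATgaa
Ccnb1, chr13:100786487-100786736, minus strand: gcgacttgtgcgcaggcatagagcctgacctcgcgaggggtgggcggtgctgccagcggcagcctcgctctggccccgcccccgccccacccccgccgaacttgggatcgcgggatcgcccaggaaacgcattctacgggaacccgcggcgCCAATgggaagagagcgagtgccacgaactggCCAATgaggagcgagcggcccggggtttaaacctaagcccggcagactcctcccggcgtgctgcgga

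The Mki67 window held CHR letters starting 116 and 98 bases before the annotated start and CCAAT letters 188, 166 and 141 bases before it. The Cdc20 window held a CHR 18 bases before the start, beside CCAAT letters 53 and 8 bases before it. The Plk1 window held its CHR 30 bases after the start, outside the bases shown, and a CCAAT box 14 bases before it. Ccnb1, which encodes cyclin B1, held neither TTTGAA nor TTCGAA in its window, and CCAAT boxes 99 and 67 bases before the start. A CHR was present in 26 of the 40 promoters (65%), compared with 14.2% of 11627 promoters of genes in the expression table. A CCAAT box was present in 26 of the 40 promoters (65%), compared with 38.2%, and both motifs were present in 21 (52.5%), compared with 5.85%. The CHR was present in 3 of 9 promoters of the anaphase-promoting complex and its activators and in 23 of 31 promoters of the other genes. These matches describe letters within 300 bases and do not show that a factor binds there. Only TTTGAA and TTCGAA were searched for the CHR, so a window without a match is not shown to lack the element.

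The deposited values are read counts per gene divided by a size factor for each joint, here called normalised counts. Whole reads recovered from them ranged from 27955496 to 52529973 per joint, and from 0.350% to 0.699% of these reads fell on the 45 genes. None of the 45 genes was at 0 in any joint, and the lowest had 360 reads, so counting error was small beside the differences between joints for most genes. It was a larger part of the spread for core subunit genes that varied little. Among these were Cdc26 (within-group SD 0.056 on the log2 scale, at least 844 reads) and Anapc4 (0.080, at least 1275 reads). MSC replicate 5 stood apart in having 296 genes listed at 0, none of them a mitotic gene.

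Mki67 had the highest normalised count of the 45 genes, with a mean of 33211 over the 20 joints, followed by Anapc5 at 18149 and Top2a at 14712 (the order of counts also reflects transcript length). Per kilobase of the canonical transcript, Ube2c, the ubiquitin-conjugating enzyme that works with the anaphase-promoting complex, was highest at 6546, followed by Anapc5 at 5696, Birc5 at 3772 and Mki67 at 3234. Ttk, the kinase that starts checkpoint signalling, was lowest at 194 per kilobase. The highest joint exceeded the lowest 2.16-fold at the median of the 45 genes, from 1.18-fold for Cdc26 to 3.06-fold for Kif20a. The standard deviation within groups had a median of 0.35 on the log2 scale over the 45 genes, compared with 0.26 over all genes.

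**Figure D1:**
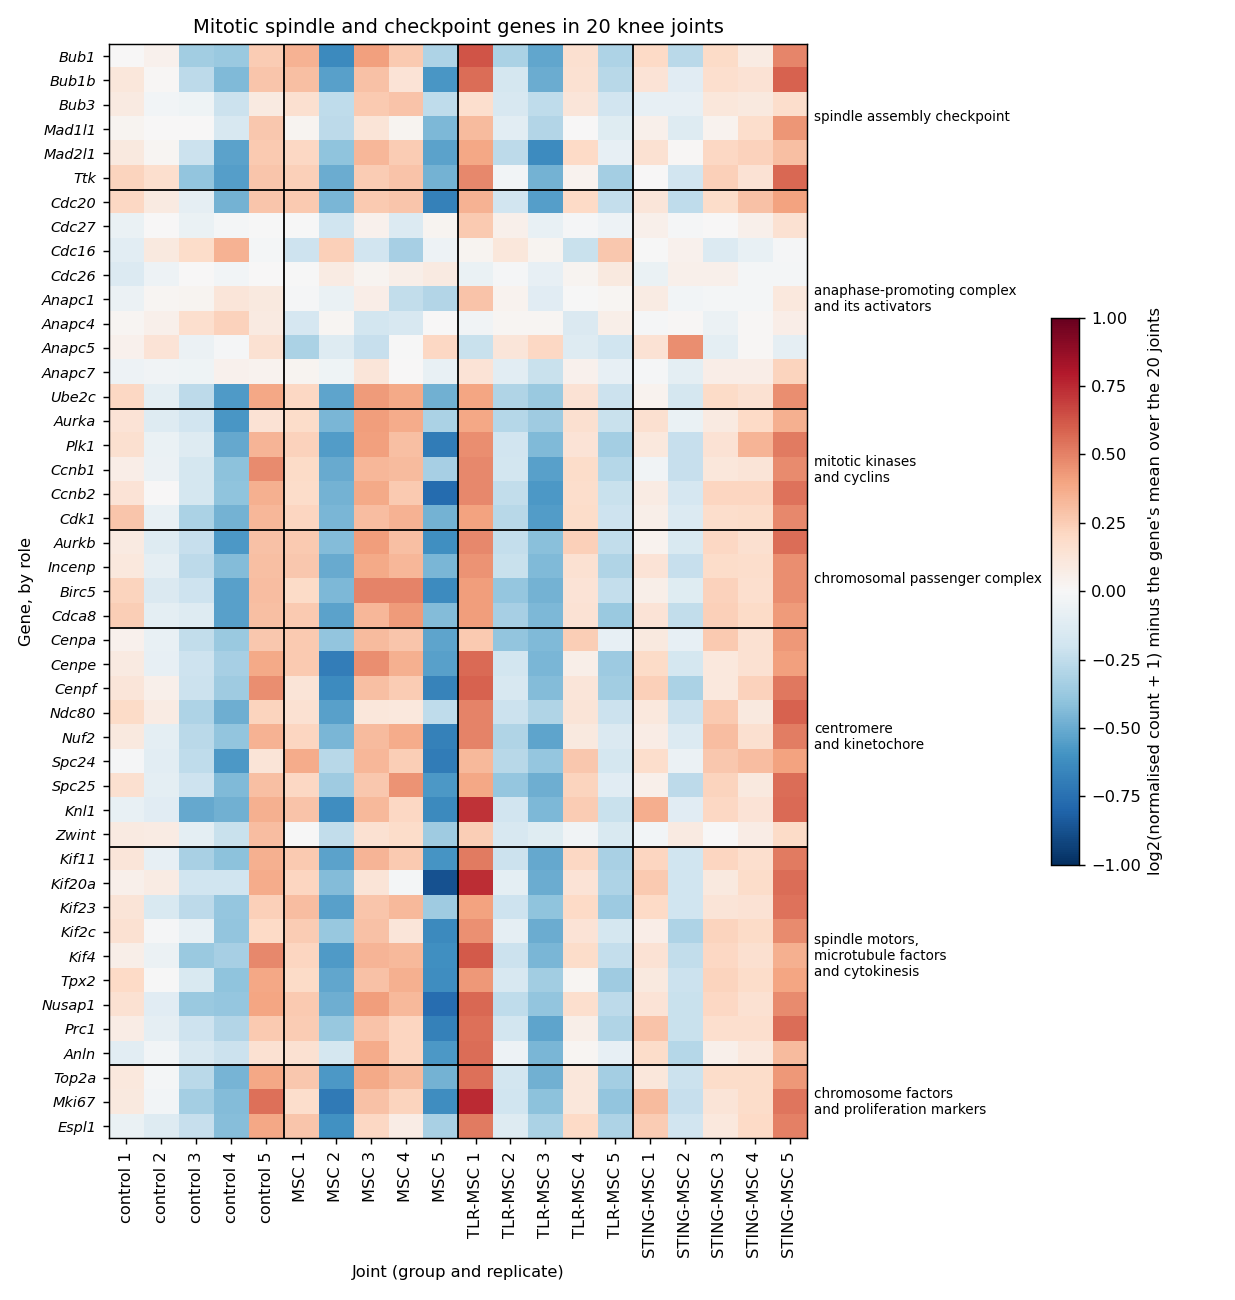
Level of each of the 45 genes (rows, by role) in each of the 20 joints (columns, by group), as log2(normalised count + 1) minus the mean of that gene over the 20 joints, with red above and blue below the mean. Whole columns are red or blue in nearly every role, with TLR-MSC replicate 1 and STING-MSC replicate 5 highest and MSC replicates 2 and 5 lowest, whereas most subunits of the anaphase-promoting complex stay pale.

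Mki67 encodes Ki-67, which coats mitotic chromosomes and is the usual marker of dividing cells (ENSMUSG00000031004, GRCm39 chr7:135291513-135318091). Values are given from replicate 1 to replicate 5 of each group. Mki67 was at 34209, 31344, 25263, 23686 and 46983 in control joints and 36179.5, 19578, 39194, 37439 and 20810.2 in MSC joints. Mki67 reached 53755, 27917, 24074, 34665 and 24324 in TLR-MSC joints and 39833, 27311, 35038, 36275 and 46334 in STING-MSC joints. The groups overlapped, the highest joint was TLR-MSC replicate 1 and the lowest was MSC replicate 2, a 2.75-fold range. Top2a encodes DNA topoisomerase II alpha, which untangles sister chromosomes. Top2a had normalised counts of 15429.8, 14084, 11857, 10353 and 18744 in control joints and 17220.2, 9595, 18603, 17804 and 10291 in MSC joints. Top2a had 20979.7, 12612, 10270.3, 15454 and 11327 in TLR-MSC joints and 15446, 12337, 16217, 16297 and 19309 in STING-MSC joints. The same joints were highest and lowest for Top2a as for Mki67. Espl1, which encodes separase, the protease that cuts cohesin at anaphase, ranged 2.18-fold between joints.

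Of the checkpoint genes, Bub1 encodes a kinase that recruits the other checkpoint proteins to kinetochores. Bub1 was at 1283, 1319, 1008, 992 and 1526 in control joints and 1629.9, 826, 1707, 1538 and 1034 in MSC joints. Bub1 reached 1984, 1029, 891, 1430.3 and 1036 in TLR-MSC joints and 1474, 1062, 1465, 1358 and 1798 in STING-MSC joints. Replicate 1 of TLR-MSC was highest and replicate 2 of MSC lowest, and every pair of groups overlapped. Bub1b encodes BubR1, part of the complex that inhibits Cdc20. Bub1b had a count of 2909, 2707, 2236, 1980.0 and 3262 in control joints and 3312, 1846, 3291, 2945 and 1790.4 in MSC joints. Bub1b had 3954, 2372, 1898, 2991 and 2216 in TLR-MSC joints and 2944, 2484, 3018, 2971 and 4034 in STING-MSC joints. Here replicate 5 of STING-MSC was highest and replicate 5 of MSC lowest. Mad2l1 encodes Mad2, which binds Cdc20 while the checkpoint is active. Mad2l1 was at 2209, 2091, 1784, 1430.2 and 2483 in control joints and 2393, 1567, 2599.8, 2462 and 1430.1 in MSC joints. Mad2l1 reached 2699.6, 1719.9, 1337, 2374 and 1953 in TLR-MSC joints and 2299.9, 2082, 2381, 2428 and 2546 in STING-MSC joints. The STING-MSC joints lay closest together for Mad2l1, yet all groups overlapped. Bub3 and Mad1l1 ranged less, 1.46-fold and 1.86-fold between joints, and Ttk ranged 2.19-fold.

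Cdk1 encodes the cyclin-dependent kinase that drives entry into mitosis. Cdk1 was counted at 3969, 3107, 2633, 2363 and 4111 in control joints and 3803, 2380.0, 4059, 4166 and 2355 in MSC joints. Cdk1 came to 4315, 2706, 2227, 3720.3 and 2839 in TLR-MSC joints and 3400.0, 2979.6, 3706, 3711 and 4559 in STING-MSC joints. Cdk1 was lowest in TLR-MSC replicate 3 and highest in STING-MSC replicate 5, and its groups overlapped. Ccnb1 encodes cyclin B1, the partner of Cdk1. Ccnb1 was at 2476, 2279, 2095, 1786 and 3294 in control joints and 2712, 1669, 2979, 2949 and 1882 in MSC joints. Ccnb1 reached 3299, 2082, 1626, 2683 and 1944 in TLR-MSC joints and 2306, 2019, 2568, 2592 and 3278 in STING-MSC joints. Ccnb1 was lowest in TLR-MSC replicate 3 and highest in TLR-MSC replicate 1, so a single group spanned the whole range. Plk1 encodes polo-like kinase 1, which acts in spindle assembly and chromosome separation. Plk1 had values of 2499, 2129.9, 2042, 1569 and 2824 in control joints and 2613, 1519, 2962, 2754 and 1376 in MSC joints. Plk1 had 3086, 1959, 1639.5, 2447 and 1764 in TLR-MSC joints and 2407, 1904, 2470.4, 2819.9 and 3207 in STING-MSC joints. Plk1 was lowest in MSC replicate 5 and highest in STING-MSC replicate 5. Ccnb2 and Aurka, which encodes aurora kinase A of the spindle poles, ranged 2.48-fold and 2.00-fold.

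Aurkb encodes aurora kinase B, the enzyme of the chromosomal passenger complex, which corrects wrong attachments. Aurkb was at 2558, 2195, 2047, 1608 and 2941 in control joints and 2869, 1771, 3198, 2949 and 1564 in MSC joints. Aurkb reached 3346, 2031, 1795, 2833 and 2019 in TLR-MSC joints and 2457, 2163, 2769, 2677 and 3533 in STING-MSC joints. The extremes of Aurkb were the same joints as for Plk1. Its partners Incenp, Birc5 (survivin) and Cdca8 (borealin) ranged 1.96-fold, 2.18-fold and 1.96-fold. Among the 9 centromere and kinetochore genes, the range ran from 1.59-fold for Zwint to 2.57-fold for Knl1, which encodes the kinetochore scaffold on which Bub1 docks. The NDC80 complex, which grips microtubules and is made of the products of Ndc80, Nuf2, Spc24 and Spc25, ranged 2.19-fold, 2.28-fold, 2.16-fold and 2.20-fold. The spindle motors, microtubule factors and cytokinesis genes ranged from 2.08-fold for Tpx2, an activator of aurora kinase A, to 3.06-fold for Kif20a, a kinesin of the central spindle.

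The anaphase-promoting complex and its activators were of 2 sorts. Cdc20, the activator that the checkpoint restrains, ranged as widely as the kinases. Cdc20 was at 3776, 3490.3, 3085, 2366 and 3970.1 in control joints and 3931, 2386, 3930.1, 3961 and 2047 in MSC joints. Cdc20 reached 4179, 2868, 2241, 3761 and 2776 in TLR-MSC joints and 3568, 2752, 3723, 4019 and 4322 in STING-MSC joints. STING-MSC replicate 5 was highest and MSC replicate 5 lowest. Ube2c ranged 2.05-fold. The other 7 genes encode core subunits, and these ranged from 1.18-fold for Cdc26 to 1.72-fold for Anapc5. Cdc27 encodes one of the subunits to which activators bind. Cdc27 was at 2146, 2247, 2144, 2209 and 2238 in control joints and 2239, 1952, 2304, 2044 and 2287 in MSC joints. Cdc27 reached 2684, 2324, 2134, 2229 and 2159.9 in TLR-MSC joints and 2317, 2221, 2253, 2320.1 and 2495 in STING-MSC joints. The control joints lay within a narrow band for Cdc27, and TLR-MSC replicate 1 was highest. Anapc4 encodes a subunit of the scaffold (ENSMUSG00000029176, GRCm39 chr5:52991354-53025140). Anapc4 was at 1712, 1753, 1900.1, 1979 and 1800.3 in control joints and 1506, 1713, 1487, 1509 and 1694 in MSC joints. Anapc4 reached 1646, 1709, 1709, 1531 and 1761 in TLR-MSC joints and 1674, 1699, 1619, 1703 and 1767 in STING-MSC joints. MSC replicates 1, 3 and 4 were the 3 lowest joints for Anapc4 and control replicates 3 and 4 the 2 highest.

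**Figure D2:**
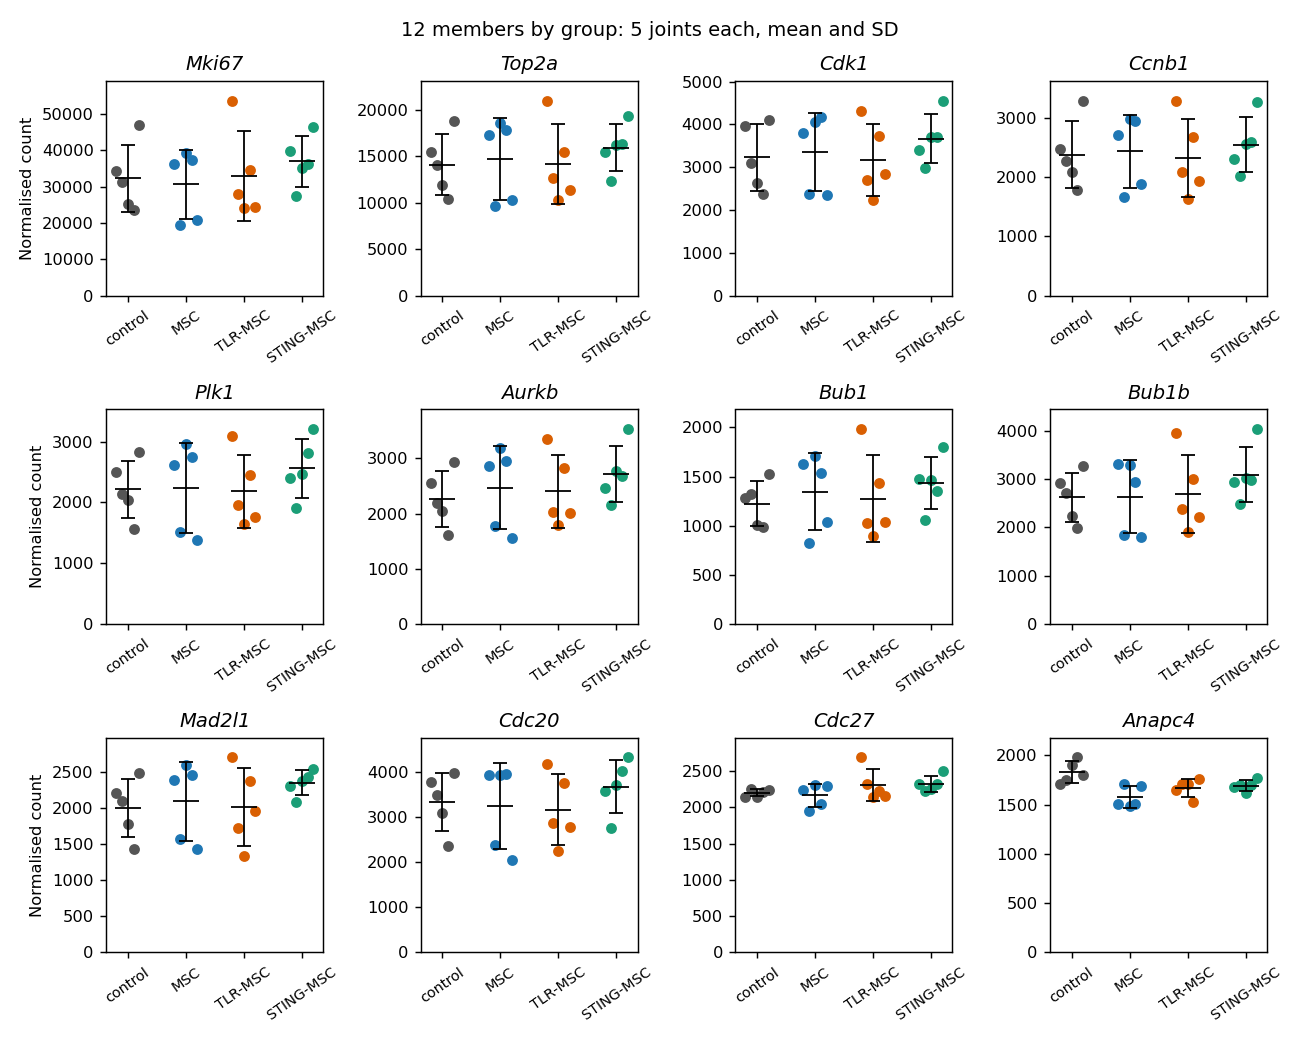
Normalised counts of 12 genes in each joint (points) by group, with the mean (horizontal bar) and SD (error bar) of 5 joints and axes that start at 0. The groups overlap in every panel, and the joints within a group spread widely except for Cdc27 and Anapc4.

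The first question was whether injection of MSC, activated or not, changed expression of these genes, in 6 comparisons between pairs of the 4 groups. Differences were tested gene by gene with limma on log2(normalised count + 1) over all 20 joints, fold changes are on this scale, and p-values were adjusted over all 14793 genes to a false discovery rate (FDR). The core subunit gene Anapc4 was the only 1 of the 45 genes whose unadjusted p reached the 0.05 threshold in any comparison, lower in MSC joints and in TLR-MSC joints than in control joints. The other 44 genes, from Ki-67 to the kinetochore, passed the threshold in no comparison. With an FDR threshold of 0.05, limma called 0 of the 45 genes in each of the 6 comparisons. The share of all genes called at that FDR was 0.00676% for MSC against control and 0% for TLR-MSC against control, STING-MSC against control, TLR-MSC against MSC, STING-MSC against MSC and STING-MSC against TLR-MSC. On the recovered reads, edgeR also called 0 of the 45 in all 6 comparisons, and DESeq2 called 1, Anapc4, for MSC against control (adjusted p = 0.049). Of all 14793 genes, edgeR called 15 for MSC against control, 1 for TLR-MSC against MSC and 0 in the other comparisons. DESeq2 called 105, 3 and 85 of all genes for MSC, TLR-MSC and STING-MSC against control. It called 7 for TLR-MSC against MSC, 29 for STING-MSC against MSC and 2 for STING-MSC against TLR-MSC.

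For MSC against control, 0 of the 45 genes were higher and 1 was lower by the unadjusted p, compared with 5.64% and 2.91% of all genes. For TLR-MSC against control, 0 were higher and 1 was lower, compared with 2.68% and 0.906%. For STING-MSC against control, 0 were higher and 0 lower, compared with 6.54% and 5.69%. For TLR-MSC against MSC, 0 were higher and 0 lower, compared with 1.89% and 1.99%. For STING-MSC against MSC, 0 were higher and 0 lower, compared with 2.77% and 2.17%. For STING-MSC against TLR-MSC, 0 were higher and 0 lower, compared with 0.784% and 1.78%. In the limma F test over the 4 groups, only Anapc4 passed (unadjusted p = 0.0238, FDR = 0.702), 1 of 45 genes compared with 6.42% of all genes. With 45 genes, each share is coarse, and the genes are not independent of each other.

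Anapc4 was 1582 on average in MSC joints and 1829 in control joints, and 4 of 5 MSC joints lay below every control joint. The log2 fold change was -0.21 (SE 0.061, 95% interval -0.34 to -0.081, limma unadjusted p = 0.0029, FDR = 0.303), and an exact two-sided permutation test gave p = 0.0159. In TLR-MSC joints the mean was 1671, and again 4 of 5 joints lay below every control joint. The log2 fold change was -0.13 (SE 0.061, limma unadjusted p = 0.048, FDR = 0.9997), with an exact permutation p of 0.0397. In STING-MSC joints the mean was 1693 and 4 of 5 joints lay below every control joint, with a log2 fold change of -0.11 (limma unadjusted p = 0.089, FDR = 0.482, exact permutation p = 0.0397). These 3 comparisons share the control joints, of which replicates 3 and 4 were highest. Without control replicate 4 the TLR-MSC difference was -0.10 (limma unadjusted p = 0.13), and the p was above 0.05 in 7 of the 10 fits that left out a control or TLR-MSC joint. In MSC joints the difference ranged from -0.24 to -0.18 when each joint was left out in turn, and the unadjusted p stayed at most 0.05. Anapc4 shared its direction with Cdc16 (log2 fold change -0.21, SE 0.107, limma unadjusted p = 0.067) and Anapc1 (-0.15, SE 0.078, limma unadjusted p = 0.068) in MSC joints, and neither passed the threshold. The list was mixed, with 6 of the 9 genes of the anaphase-promoting complex and its activators below 0 and 3 above 0. Cdc26 was higher in MSC than in control joints on the recovered reads (log2 fold change 0.092, DESeq2 unadjusted p = 0.044, and 0.11, edgeR unadjusted p = 0.042).

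The 45 genes together lay slightly higher in STING-MSC joints, by less than the spread of the joints. Their median log2 fold change against control was 0.20 for STING-MSC, 0.017 for MSC and -0.0076 for TLR-MSC, compared with 0.0078, -0.036 and -0.0068 over all genes. STING-MSC was also higher by a median of 0.18 against MSC and 0.21 against TLR-MSC, with 0.022 and 0.021 over all genes. The fold changes were above 0 for 42, 44 and 43 of the 45 genes against control, MSC and TLR-MSC. Of all genes, 51.7%, 55.5% and 55.3% were above 0. The 45 genes move together between joints, so their counts do not represent 45 separate observations, and the 3 comparisons share the STING-MSC joints. TLR-MSC differed from MSC by a median of -0.021. The mean log2 level of the 45 genes was 11.51 in STING-MSC, 11.34 in control, 11.33 in MSC and 11.33 in TLR-MSC joints, and its standard deviation between joints of a group was 0.28. The STING-MSC joints thus exceeded control, MSC and TLR-MSC joints by 0.17, 0.18 and 0.18 in this mean, each with a standard error of 0.18, so each difference was about 1 standard error. For Mki67, STING-MSC against control gave a log2 fold change of 0.22 with a 95% interval of -0.31 to 0.75 (limma unadjusted p = 0.40). For Plk1 it was 0.22 (-0.26 to 0.69, limma unadjusted p = 0.35), and for Bub1 0.22 (-0.25 to 0.70, limma unadjusted p = 0.33). The intervals of these 3 genes include no change, a fall and a larger rise.

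Summed over each role, the groups also overlapped. The 6 checkpoint genes had a summed normalised count of 11357 ± 1690 in control, 11744 ± 2726 in MSC, 11353 ± 2575 in TLR-MSC and 12721 ± 1559 in STING-MSC joints (SD, n = 5, here and for the next sums). The 5 kinases and cyclins summed to 13862 ± 2946, 14289 ± 4095, 13695 ± 3697 and 15774 ± 2570 in the same order, and the 4 passenger complex genes to 13112 ± 2844, 14155 ± 4281, 13106 ± 3544 and 15219 ± 2493. In these 3 sums every difference between group means was smaller than the standard deviation within any group. The 9 genes of centromere and kinetochore ranged from 13792 to 24955 in MSC joints and from 18437 to 27712 in STING-MSC joints, and the 9 motor and cytokinesis genes from 16241 to 31202 and from 21309 to 34405. Relative to its mean, the sum of the anaphase-promoting complex and its activators varied least, at 41139 ± 2784 in control, 38874 ± 2167 in MSC, 39704 ± 1834 in TLR-MSC and 42742 ± 2049 in STING-MSC joints, with Anapc5 the largest part of each sum. Its coefficient of variation was 4.62% to 6.77% in the 4 groups, compared with 12.3% to 34.9% for the sums of the other 6 roles. This was also the sum whose group means lay farthest apart for its spread, 3869 higher in STING-MSC than in MSC joints and 3038 higher than in TLR-MSC joints, above the largest SD of 2784. The joints overlapped even so, from 35805 to 41346 in MSC and from 40113 to 45668 in STING-MSC joints, and none of the 9 genes passed the unadjusted threshold between these groups.

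The largest fold changes for STING-MSC against control were those of Knl1 (0.40, SE 0.24, limma unadjusted p = 0.113) and Spc24 (0.38, SE 0.195, limma unadjusted p = 0.064), both named after their values were seen. Against MSC the largest was that of Kif20a (0.38, SE 0.22, limma unadjusted p = 0.107). By role, the median for STING-MSC against control was 0.22 for the checkpoint, 0.20 for the kinases and cyclins, 0.23 for the passenger complex, 0.23 for the centromere and kinetochore, 0.17 for the motors and cytokinesis genes, 0.22 for the chromosome factors and 0.042 for the anaphase-promoting complex and its activators. When each joint was left out in turn, the median of the 45 genes ranged from 0.097 (without control replicate 4) to 0.30 (without control replicate 5) for STING-MSC against control, from -0.069 to 0.13 for MSC against control and from -0.14 to 0.084 for TLR-MSC against control, so the direction of the latter 2 depended on single joints. It ranged from 0.059 to 0.27 for STING-MSC against MSC (without MSC replicates 5 and 3) and from 0.11 to 0.34 for STING-MSC against TLR-MSC (without TLR-MSC replicates 3 and 1). Without MSC replicate 2 the former was 0.088, and without STING-MSC replicate 5 the medians were 0.12, 0.11 and 0.12 against control, MSC and TLR-MSC. TLR-MSC against MSC ranged from -0.16 to 0.077 and changed sign with single joints. In edgeR the median for STING-MSC against MSC was 0.11.

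**Figure D3:**
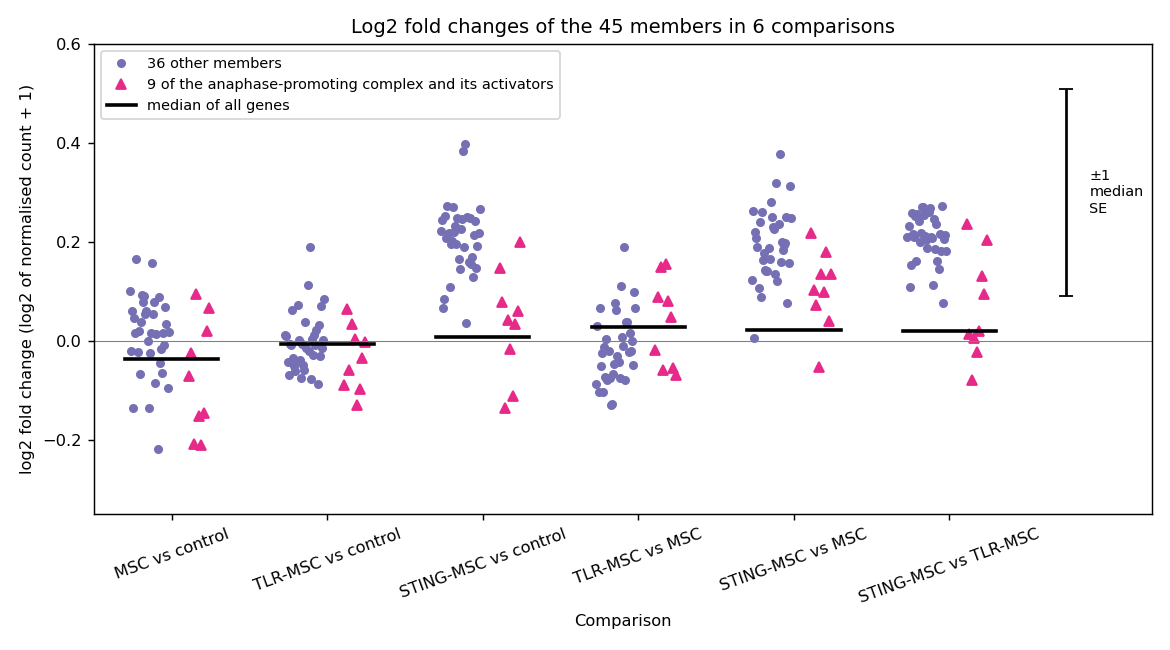
Log2 fold changes of the 45 genes in the 6 comparisons, with the anaphase-promoting complex and its activators as triangles, the other 36 genes as circles, the median of all genes as a black line and, at the right, plus and minus the median standard error of a single gene, 0.21. Nearly all circles lie above the line in the 3 comparisons with STING-MSC and around it in the others.

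The second question was whether these genes varied together between joints whatever the treatment. Each gene was correlated with Mki67 over the 20 joints after subtracting the mean of each group. Its p came from a permutation test of 100000 shuffles within groups, adjusted over all 14793 genes, Mki67 among them. Of the other 44 genes, 39 correlated positively with Mki67 at an FDR of at most 0.05, compared with 24.3% of all genes. The median Pearson r of the 44 genes was 0.94 and the highest was 0.99 for Cenpf, a kinetochore protein (Spearman rho 0.99, permutation p for each 1e-05, the smallest the shuffles can give, FDR = 0.000129). Every gene outside the anaphase-promoting complex list correlated with Mki67 with an r of at least 0.88, among them the checkpoint kinase gene Bub1 (r = 0.97, rho = 0.97), Knl1 (r = 0.99, rho = 0.98), the kinesin gene Kif4 (r = 0.98, rho = 0.97) and Top2a (r = 0.98). Among the 36 genes including Mki67, the 630 pairwise correlations had a median of 0.94 and ranged from 0.78 to 0.995. The joints farthest from the median of Mki67 were MSC replicates 2 and 5, and without them 39 of the 44 genes still correlated positively, compared with 16.7% of all genes. Depth did not follow Mki67 detectably (r = 0.34, permutation p = 0.198, rho = 0.23, permutation p = 0.362, 0.072 without the 2 farthest joints).

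Within the anaphase-promoting complex list, 4 of 9 genes correlated positively with Mki67, compared with 24.3% of all genes. Ube2c had an r of 0.95 and Cdc20 of 0.92, beside 0.93 to 0.96 for the kinases and cyclins, followed by the core subunit genes Anapc7 (r = 0.72, rho = 0.70, FDR = 0.0022, permutation test) and Cdc27 (r = 0.63, rho = 0.52, FDR = 0.036, permutation test). Cdc16 (r = -0.66, rho = -0.72, FDR = 0.021, permutation test) and Anapc4 (r = -0.64, rho = -0.68, FDR = 0.027, permutation test) were lower in joints with more Mki67, 2 of the 44 genes compared with 25.4% of all genes. Without MSC replicates 2 and 5 their r was -0.52 and -0.44, and neither passed the threshold (FDR = 0.18 and 0.26, permutation test). Anapc1 (r = 0.54), Anapc5 (r = -0.41) and Cdc26 (r = -0.40) did not pass it. In the 3 MSC joints with the least Anapc4, replicates 1, 3 and 4, Mki67 was the highest of that group.

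**Figure D4:**
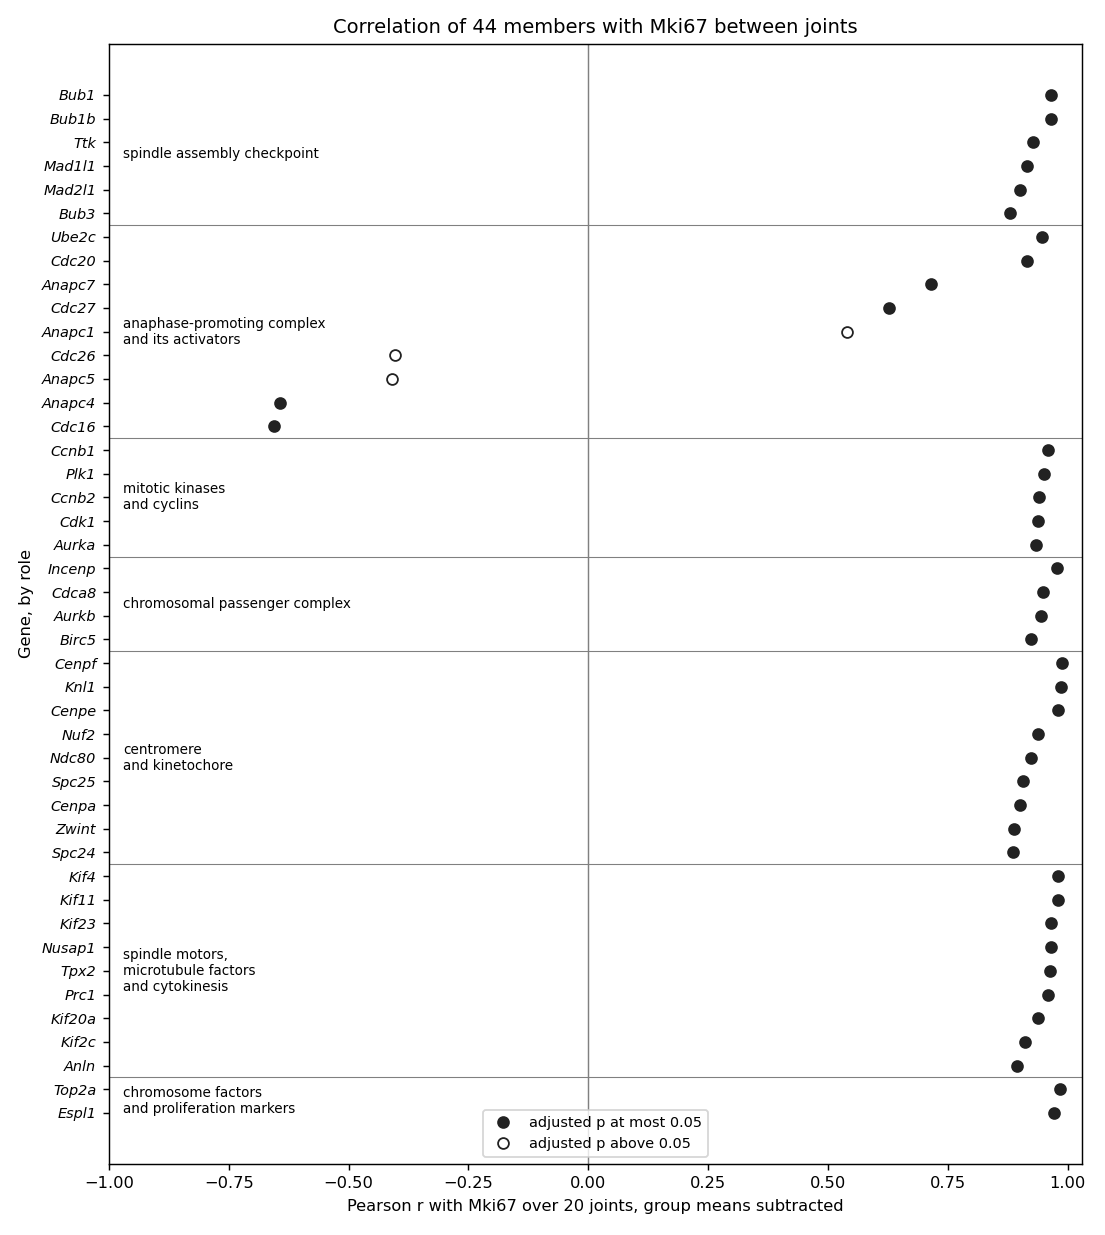
Pearson r of 44 genes (rows, by role) with Mki67 over 20 joints after subtraction of group means, with filled points for an adjusted p of at most 0.05. All genes outside the anaphase-promoting complex list lie at 0.88 or above, and that list runs from -0.66 for Cdc16 to 0.95 for Ube2c.

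Other genes of the same machinery moved alike. Of 95 further mitotic genes listed by role, 85 correlated positively with Mki67 at an FDR of at most 0.05, compared with 24.3% of all genes. Among them were 31 of 31 genes of centromere, kinetochore and cohesion, 31 of 31 of spindle, condensin and cytokinesis, 14 of 15 kinases, cyclins and phosphatases, and 9 of 18 of the checkpoint and the anaphase-promoting complex. The last list was mixed, and in it Anapc11 (r = -0.77, FDR = 0.0018, permutation test) and Anapc13 (r = -0.60, FDR = 0.015, permutation test), both named after their values were seen, were lower in joints with more Mki67. Pttg1, which encodes securin, the inhibitor of separase, did not follow Mki67 (r = 0.0085). Of 18 regulators of mitotic transcription, 17 followed Mki67, compared with 24.3% of all genes. Rbl2, which encodes a pocket protein of resting cells, did not (r = -0.36). Between the groups, 2 of these 95 genes and 0 of the 18 regulators passed the unadjusted threshold in the F test, compared with 6.42% of all genes, a smaller share. Wee1, which encodes a kinase that holds Cdk1 inactive, had a normalised count of 1002 ± 77.1 in control, 1277 ± 131 in MSC, 1228 ± 152 in TLR-MSC and 1202 ± 99.7 in STING-MSC joints (SD, n = 5). Its F test gave an unadjusted p = 0.0073 (limma, FDR = 0.597), with log2 fold changes against control of 0.35 (SE 0.093), 0.29 and 0.26. Stag2, which encodes a cohesin subunit, was 5691 ± 351 in control and 6660 ± 355 in STING-MSC joints (SD, n = 5), with a log2 fold change of 0.23 (SE 0.072, limma unadjusted p = 0.0050, FDR = 0.296).

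Markers of marrow cells were measured beside the mitotic genes, since the joints were taken with bone. In bulk RNA, more dividing cells and more of these transcripts per cell cannot be told apart. The summed normalised count of 12 erythroid genes ranged from 565181 to 990006 in control, 437412 to 939985 in MSC, 548489 to 922916 in TLR-MSC and 590177 to 981283 in STING-MSC joints, and none of the 12 was at 0 in any joint. It correlated with Mki67 over the 20 joints after subtraction of group means (r = 0.94, rho = 0.97, permutation p for each 1e-05, FDR over 9 marker lists 9.0e-05), and r was 0.93 without the 2 joints farthest from the median of Mki67. All 12 genes correlated positively with Mki67 at an FDR of at most 0.05, compared with 24.3% of all genes. The lowest were the globin genes Hba-a1 and Hbb-bt with an r of 0.92. The median log2 fold change of the 12 genes was 0.24 for STING-MSC against control, 0.24 against MSC and 0.18 against TLR-MSC, beside the medians of the mitotic genes given above. In each comparison, 0 of the 12 passed the unadjusted threshold. Of all genes, 0.784% to 6.54% were higher and 0.906% to 5.69% lower over the 6 comparisons, so 0 of 12 says little.

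Megakaryocyte markers (r = 0.86, rho = 0.84, FDR = 0.00013, permutation test, 0.80 without the 2 farthest joints) and granulocyte precursor markers (r = 0.70, rho = 0.73, FDR = 0.0052, permutation test, 0.54 without them) also followed Mki67. B-cell precursor markers did so over the 20 joints (r = 0.51, rho = 0.61, FDR = 0.027, permutation test) but not without MSC replicates 2 and 5 (r = 0.33, permutation p = 0.14). Markers of mesenchymal stromal cells (r = -0.78, rho = -0.82, FDR = 0.00057, permutation test, -0.71 without the 2 farthest joints) and of cartilage and synovial lining (r = -0.67, rho = -0.78, FDR = 0.0022, permutation test, -0.49 without them) had lower sums in joints with more Mki67. Gene by gene these lists were mixed, with 4 of 9 stromal genes (Thy1, Nt5e, Pdgfra and Ly6a) and 3 of 7 joint lining genes (Comp, Prg4 and Cilp) lower at an FDR of at most 0.05, compared with 25.4% of all genes. Col2a1 (r = -0.14) and Acan (r = -0.27), which encode the main collagen and proteoglycan of cartilage, did not pass, and Dpp4 (r = 0.24) and Matn3 (r = 0.090) lay above 0. Of the marrow lists, 6 of 6 megakaryocyte genes, 9 of 10 granulocyte precursor genes and 8 of 10 B-cell precursor genes followed Mki67, compared with 24.3% of all genes. Ebf1 of the B-cell precursor list went the other way (r = -0.66). Skeletal muscle (r = -0.51, FDR = 0.065, permutation test), bone (r = -0.38, FDR = 0.17, permutation test) and epidermis (r = -0.13, FDR = 0.66, permutation test) did not pass the threshold. Between the groups, the granulocyte precursor markers had larger median fold changes against control than the mitotic genes. Their median log2 fold change was 0.51 for STING-MSC, 0.42 for MSC and 0.21 for TLR-MSC against control, with 10 of 10 genes above 0 each time. By the unadjusted p, 7 of 10 were higher in STING-MSC joints, compared with 6.54% of all genes, and 3 of 10 in MSC joints, compared with 5.64%. In TLR-MSC joints it was 0 of 10, compared with 2.68%, and 0 were called at an FDR of at most 0.05 in each. The megakaryocyte markers had medians of 0.36, 0.21 and -0.0058 in the same order, and 0 of 6 passed. The B-cell precursor markers went another way, with medians of -0.15, 0.0019 and -0.26 and 1, 5 and 2 of 10 genes above 0. By the unadjusted p, 1 of 10 was lower in STING-MSC joints, compared with 5.69% of all genes. It was 0 of 10 in MSC and in TLR-MSC joints, compared with 2.91% and 0.906%. The mesenchymal stromal markers had medians of -0.38, -0.27 and 0.061. By the unadjusted p, 3 of 9 were lower in STING-MSC joints, compared with 5.69% of all genes, and 1 of 9 was higher in TLR-MSC joints, compared with 2.68%. The cartilage and synovial lining markers had medians of -0.78, -0.71 and -0.52, and 0 of 7 passed. Of all genes, 6.54%, 5.64% and 2.68% were higher and 5.69%, 2.91% and 0.906% lower in the same order. Beside these shares, 0 of 6 or 0 of 7 says little. The part of these cell types in the levels of the mitotic genes was not tested, nor does the covariate fit below test it.

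The erythroid level of each joint was also used as a covariate in limma, a fit chosen after the data were seen. This level was measured in the same joints and itself correlated with Mki67 (r = 0.94). Fold changes of the mitotic genes under it can change for that reason alone, so they do not show a part of erythroid cells. For MSC against control, 11 of the 45 genes then passed the unadjusted threshold (9 higher, 2 lower), compared with 23.9% of all genes in either direction. For STING-MSC against control there were 12, all higher, compared with 19.2% of all genes in either direction. For TLR-MSC against control there were 3, compared with 9.29%. The shares of all genes under this covariate count both directions together, so the directions of the 45 genes cannot be weighed against them. TLR-MSC against MSC gave 4 (11.4% of all genes), STING-MSC against MSC 2 (10.5%) and STING-MSC against TLR-MSC 1 (4.04%). The F test with this covariate gave 9 of the 45 genes (20%), compared with 19.1% of all genes. Except for STING-MSC against control, these shares of the 45 genes, counted in either direction, were close to or below those of all genes. Under this covariate the median of the 45 genes was 0.092, 0.040 and 0.11 for MSC, TLR-MSC and STING-MSC against control, in place of 0.017, -0.0076 and 0.20. For STING-MSC it was 0.044 against MSC and 0.071 against TLR-MSC, in place of 0.18 and 0.21, and for TLR-MSC against MSC it was -0.049. At an FDR of at most 0.05, 1 of the 45 genes was called for MSC against control, compared with 5.73% of all genes, and 1 for STING-MSC against control, compared with 1.51%. It was 0 of 45 for TLR-MSC against control (0.0135% of all genes), TLR-MSC against MSC (0.0338%), STING-MSC against MSC (0.027%) and STING-MSC against TLR-MSC (0%). The difference of Anapc4 between MSC and control joints was -0.22 (SE 0.048, limma unadjusted p = 0.00018, FDR = 0.0149), and Spc24 was higher in STING-MSC than in control joints by 0.31 (SE 0.075, limma FDR = 0.049).

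**Figure D5:**
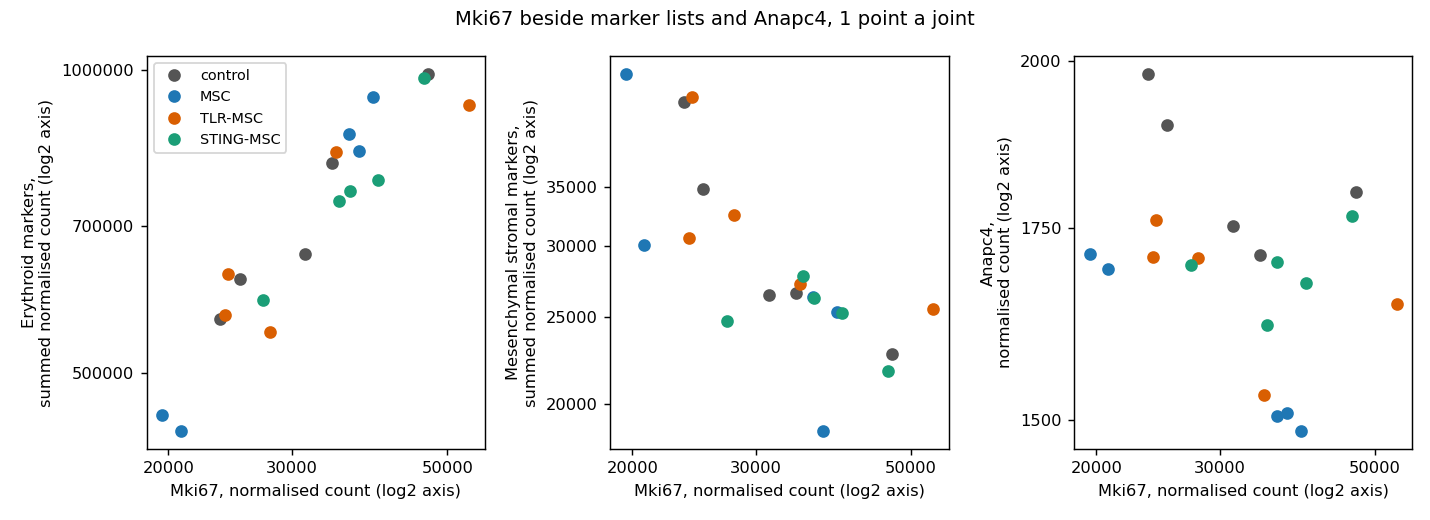
Normalised count of Mki67 (log2 axis) against the summed erythroid markers, the summed mesenchymal stromal markers and Anapc4 (log2 axes), 1 point a joint, coloured by group. Erythroid markers rise with Mki67 across all 4 groups (r = 0.94), mesenchymal stromal markers fall (r = -0.78), and MSC joints with more Mki67 have less Anapc4.

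The promoter motifs were set beside these correlations as a description. The 25 genes with a CHR had a median r with Mki67 of 0.95, from 0.72 to 0.99, and the 14 without 1 had a median of 0.89, from -0.66 to 0.98. For the CCAAT box the medians were 0.95 for the 25 genes with it (from -0.41) and 0.91 for the 14 without (from -0.66). A CHR was present in 3 of 10 promoters of the erythroid markers (30%), whose 12 genes all followed Mki67. The core subunits with a negative correlation, Anapc4, Cdc16, Anapc5 and Cdc26, were among those without a CHR in these windows. So were the core subunits Cdc27 (r = 0.63) and Anapc1 (r = 0.54), whose r lay above 0. Outside the anaphase-promoting complex list, genes without a CHR ran from 0.89 for Zwint to 0.98 for Cenpe, so the lower values belong to core subunits. Ccnb1, without a CHR match in its window, had an r of 0.96 with Mki67, beside 0.95 for Plk1 and 0.92 for Cdc20, which have 1.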

How the data were processed

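RNA of 20 mouse knee joints, 5 in each of 4 groups given by the sample labels, was sequenced after oligo(dT) enrichment with paired-end reads. Per the submitters' processing notes, the authors aligned reads to GRCm39 with STAR (2.7.3a), counted them per gene with HTSeq and used DESeq2. The authors deposited a normalised signal, gene counts divided by 1 median-ratio size factor a joint, for 14793 genes. Whether counting used strand is not given in the sources used here, so genes that overlap others are uncertain. Whole reads were recovered from the step between low values, with at least 99.8% of values of a joint within 0.1 of a whole read. Depth was 27955496 to 52529973 reads, and counts cover counting error only.

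Comparisons used limma (3.58.1, R 4.3.3) with trend on log2(normalised count + 1) over 4 groups, chosen because the values are normalised, with Benjamini-Hochberg adjustment over all genes. A minimum mean of 5 removed 0 genes. Single genes were also compared by an exact two-sided permutation test over 252 assignments, whose smallest p is 0.00794. Correlations used 100000 shuffles within groups. edgeR (4.0.16) and DESeq2 (1.42.0) on recovered reads were alternatives, and the tests were tested on simulated data. Motifs were searched in RefSeq promoters with Python (3.11.15).

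The 45 genes, the lists and the tests were chosen with earlier results of these data known. Values in every joint are given for 11 genes named beforehand and for up to 3 genes a comparison with the smallest unadjusted p of at most 0.05, which added Anapc4. Of the other lists, up to 3 genes with the smallest F test p could be named. Other genes named with values were chosen after these were seen. The labels name the replicates as biological, and the p-values measure the spread between these joints.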

Additional observations from a re-analysis of the deposited data

Results flagged for a closer look

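In 116 sets of 5 joints (12 genes and 17 summed lists in 4 groups), the gap between 1 joint and the nearest other exceeded Dixon's 95% critical value of 0.71 of the range in 3, where chance would give 5.8. None was a mitotic gene or a sum of mitotic genes. The summed normalised count of 7 epidermis genes was 7321 in control replicate 1 and 91.2 to 445 in the other control joints. It was 1118 in MSC replicate 1, with 61.8 to 178 in the other MSC joints, and 23199 in TLR-MSC replicate 4, with 121 to 1622 in the other TLR-MSC joints. Mki67 in these joints was 34209, 36179.5 and 34665, inside the range of each group.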

How the results depend on the processing

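Pseudocounts of 0.5 and 5, a minimum mean of 20 and no minimum left every count of genes past the threshold within 1.5 times its value. Quantile normalisation, TMM factors, edgeR and DESeq2 each gave 2 genes for MSC against control in place of 1. In edgeR and DESeq2 the second was Cdc26, which was higher in MSC joints, opposite to Anapc4. For TLR-MSC against control the count was 0 with only the 2 groups compared, TMM factors, edgeR or the replicate block. For STING-MSC against control it was 2 with only the 2 groups compared, and for TLR-MSC against MSC it was 1 in DESeq2. With the erythroid covariate (added after the data were seen) the counts were 11, 3, 12, 4, 2 and 1 for MSC, TLR-MSC and STING-MSC against control, TLR-MSC against MSC, and STING-MSC against MSC and TLR-MSC, in that order, and 9 in the F test (19.1% of all genes). Leaving out each joint gave 1 to 3 genes for MSC against control (3 without control replicate 1), 0 to 1 for TLR-MSC against control, 0 to 2 for STING-MSC against control (2 without control replicate 5), 0 to 1 for TLR-MSC against MSC, for STING-MSC against MSC and for STING-MSC against TLR-MSC, 0 to 2 in the F test (2 without MSC replicate 2), and 38 to 40 for the genes following Mki67. The correlation of Mki67 with epidermis markers ranged from -0.24 to 0.035, changing sign without TLR-MSC replicate 1. The cause of these changes was not tested.

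Same-numbered joints are different mice, and their deviations from the group means correlated by -0.14 to 0.11 on average, so the numbers were not taken to pair the samples. With the replicate block the count was 1 for MSC against control and 0 for the other comparisons, and Anapc4 in TLR-MSC against control kept its difference of -0.13 but not its call. Depth limits little for most genes here, since every mitotic gene had at least 360 reads in each joint, and the spread between 5 joints sets the precision. Counting error weighs more for core subunit genes that varied little, such as Cdc26 and Anapc4.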
